A study of Gallus gallus with 6 samples.

Results

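The distal-less homeobox genes *DLX1*, *DLX5* and *DLX6* were 3 of the 10337 genes with deposited expression values in the developing chick face. Their rows were found by gene symbol. *DLX2*, *DLX3* and *DLX4* were not analysed here. RNA-seq was carried out on 3 swellings of the embryonic face, the frontonasal prominence (FNP) of the midface, the maxillary prominence (MXP) of the upper jaw and the mandibular prominence (MNP) of the lower jaw. The mutant libraries came from *talpid2* embryos, homozygotes of an autosomal recessive avian mutation with disrupted primary cilia, for which a truncating deletion in *C2CD3* is the candidate. The other libraries came from control embryos, and the sources used here do not say whether these were wild type or carriers. *talpid2* heterozygous carriers were mated to obtain the mutants, all embryos were at HH25, a stage of outgrowth of the facial prominences, and neither group received a treatment. Tissue of 8 embryos per genotype was pooled by prominence, so that there was 1 library per genotype and prominence and no replicate check of any single library.

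DLX proteins are homeodomain transcription factors that sit in the genome as linked pairs. In the mouse, *Dlx1* and *Dlx2* are expressed along the whole length of the mandibular arch, including its maxillary part, whereas *Dlx5* and *Dlx6* are restricted to the lower part, and this nested arrangement gives upper and lower jaw their identity. Endothelin signaling from the arch switches on *Dlx5* and *Dlx6* in the mouse, and these genes in turn are needed there for *Hand2* and other lower jaw genes. The FNP is not an arch derivative, although its surface ectoderm and olfactory placodes are also known to express *Dlx5* in other vertebrates. The question addressed here was how the 3 genes were distributed over FNP, MXP and MNP, and whether that distribution was kept in *talpid2*.

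The deposited values are log2 values in which the median of each gene over the 6 libraries is 0, so that they compare libraries within a gene and not one gene with another. Reads behind a value could be recovered for 4898 genes, including *DLX1* and *DLX6*. For *DLX5* only the smallest number of reads that gives its values was found, and the intervals and p-values of *DLX5* are those of this smallest number. Intervals are 95% intervals for counting error alone. Depth differed by up to 1.27 times between libraries. Tests on reads compare a pair of libraries, not the genotypes. Fewer cells of a type and less RNA per cell cannot be told apart in such tissue samples. The labels were in keeping with position markers: *HAND2*, a lower jaw factor, had log2 values of 6.91 in the *talpid2* MNP and 6.70 in the control MNP, and *ALX1*, a frontonasal factor, was highest in the FNP of both genotypes.

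*DLX1* was expressed in the MXP and MNP and was nearly absent from the FNP in both genotypes. The entry (ENSGALG00000018439) is a minus-strand gene of chromosome 7 with start 19237619 and end 19245061. Coordinates are those of the deposited table, and the assembly is not named in it. Its log2 values in FNP, MXP and MNP were -6.09, 0.73 and 0.06 in *talpid2*, against -5.95, 0.57 and -0.06 in control. These values rested on 15, 1754.4 and 1128.7 reads in *talpid2*, against 20, 1584 and 1244.42 reads in control. The FNP libraries thus held 0.888% of the highest library in *talpid2* and 0.981% in control. The *DLX1* row lay within the limits of the deposited table, whose unit is not named, in 4 of 6 libraries. Ordered by level, both MXP libraries came first, then both MNP libraries, then both FNP libraries. The MNP libraries of the 2 genotypes did not differ beyond counting error in this order, nor did the FNP libraries.

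*DLX5* was highest in the MNP and was present at lower levels in both other prominences. Its entry (ENSGALG00000009129) covers 24415562 to 24417820 of chromosome 2 on the minus strand. The log2 values in FNP, MXP and MNP were 0.15, -0.44 and 1.69 in *talpid2*, against -0.15, -0.54 and 1.48 in control. On at least 653.7 reads in every *talpid2* library and at least 612.44 in every control library, no library was near the limit of detection. As a share of the highest library, the *talpid2* MNP, the level in FNP and MXP was 34.3% and 22.8% in *talpid2*, against 27.8% and 21.3% in control. The MNP of both genotypes stood above all other libraries, the FNP libraries came next, and the MXP libraries were lowest, although with *GAPDH* as the reference gene for scaling the control MXP and FNP differed by -0.03. Only the MXP libraries of the 2 genotypes, which were neighbours at the bottom of this order, did not differ beyond counting error.

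*DLX6* was the gene most restricted to the MNP. Its entry (ENSGALG00000023195) lies on chromosome 2 from 24407053 to 24410604 on the plus strand, with 4957 bases between it and *DLX5*, so that the 2 genes are transcribed towards each other. Its log2 values in FNP, MXP and MNP were -0.30, 0.04 and 3.63 in *talpid2*, against -0.16, -0.04 and 3.41 in control. The reads behind them numbered 209.6, 274.64 and 3385.18 in *talpid2*, against 278.92, 261.84 and 3469 in control. The FNP and MXP held 6.59% and 8.31% of the highest library in *talpid2*, against 7.26% and 7.89% in control. Both MNP libraries were at least 10.35-fold above every other library, and neighbours among the 4 FNP and MXP libraries did not differ beyond counting error.

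**Figure D1:**
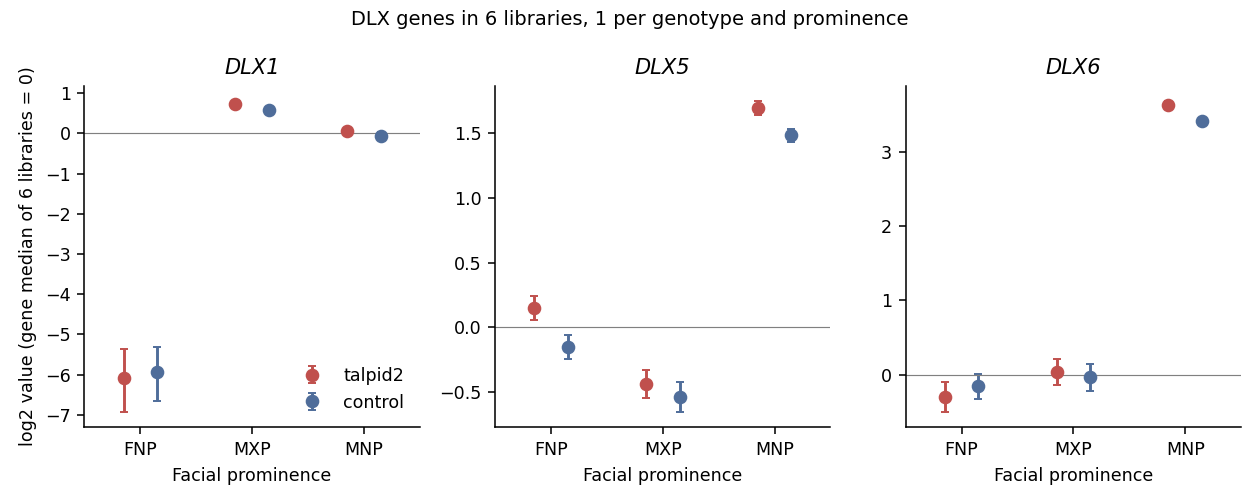
Log2 values of *DLX1*, *DLX5* and *DLX6* in each library (vertical axis, gene median over 6 libraries at 0) by prominence (horizontal axis), with *talpid2* in red to the left of control in blue and bars for the 95% Poisson counting interval. *DLX1* is near -6 in the FNP, and *DLX5* and *DLX6* are highest in the MNP of both genotypes.

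The distribution was also described by the share that each prominence took of the sum of FNP, MXP and MNP. For *DLX1*, the MXP took 61.1% in *talpid2* and 60.3% in control, and the MNP took 38.4% in *talpid2* and 39.0% in control. For *DLX5*, the MNP took 63.7% in *talpid2* and 63.8% in control. The FNP took more of *DLX5* than the MXP did, at 21.8% against 14.5% in *talpid2* and 20.5% against 15.7% in control. For *DLX6*, the MNP took 87.0% in *talpid2* and 85.0% in control. The largest shift between genotypes among the shares given here was therefore that of *DLX6* in the MNP.

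MNP and MXP were compared first, since this difference separates lower from upper jaw. *DLX6* was 12.04-fold higher in the MNP than in the MXP of *talpid2* embryos (log2 difference 3.59, 3.41 to 3.77) and 10.9-fold higher in control (3.45, 3.26 to 3.63). *DLX5* was 4.39-fold higher in the MNP in *talpid2* (2.13, 2.01 to 2.26) and 4.06-fold higher in control (2.02, 1.90 to 2.15). *DLX1* went the other way, with a log2 difference of -0.67 (-0.78 to -0.56) in *talpid2* and -0.63 (-0.74 to -0.52) in control. So 2 of 3 DLX genes were at least 1 log2 unit higher in the MNP in each genotype, compared with 2.84% of all genes in *talpid2* and 3.11% in control. Ranked by this difference among the 10337 genes, *DLX6* was at place 30 in *talpid2* and 44 in control, and *DLX5* at place 97 in *talpid2* and 108 in control.

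Against the FNP, all 3 genes were at least 1 log2 unit higher in the MNP of both genotypes, compared with 3.57% of all genes in *talpid2* and 3.56% in control. The log2 difference of *DLX1* was 6.14 (5.42 to 6.99) in *talpid2* and 5.89 (5.26 to 6.60) in control. That of *DLX6* was 3.92 (3.72 to 4.13) in *talpid2* and 3.57 (3.39 to 3.75) in control, or 15.2-fold and 11.8-fold. *DLX5* had the smallest difference, at 1.54 (1.44 to 1.65) in *talpid2* and 1.64 (1.53 to 1.74) in control.

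Between MXP and FNP, *DLX1* alone of the 3 genes was at least 1 log2 unit higher in the MXP, compared with 2.59% of all genes in *talpid2* and 2.64% in control. Its log2 difference was 6.81 (6.09 to 7.65) in *talpid2*, the highest of all 10337 genes, and 6.52 (5.89 to 7.23) in control, where only 2 genes were higher. With 10 reads added to every library these values were 6.09 and 5.94, since the FNP libraries held so few *DLX1* reads. *DLX5* was lower in the MXP than in the FNP, by a log2 difference of -0.59 (-0.74 to -0.44) in *talpid2* and -0.39 (-0.54 to -0.24) in control. *DLX6* differed by 0.33 (0.07 to 0.60) in *talpid2* and 0.12 (-0.13 to 0.37) in control.

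**Figure D2:**
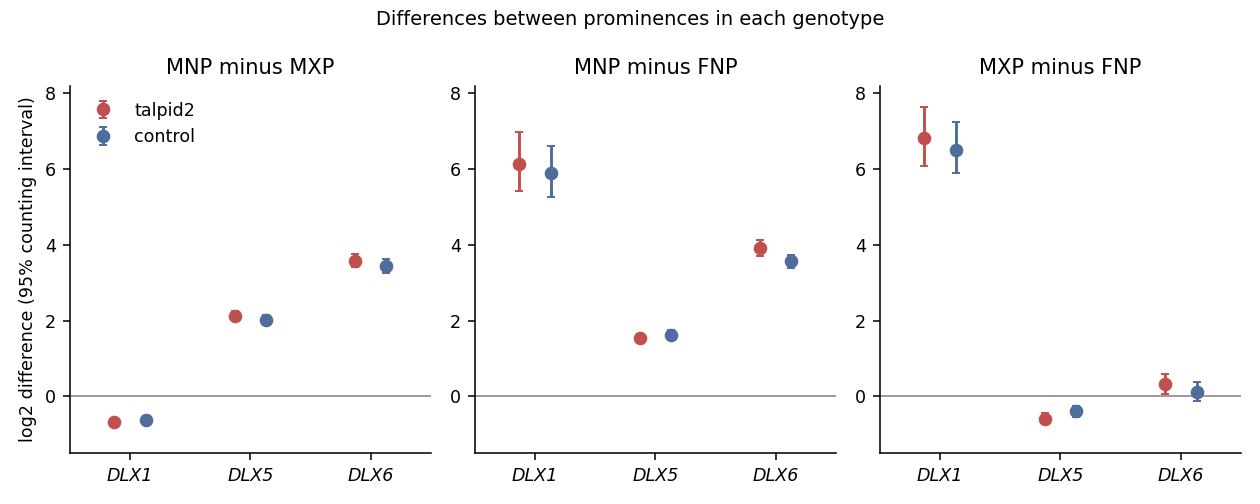
Log2 differences between prominences for each DLX gene in *talpid2* (red, left) and control (blue, right), with 95% counting intervals on the vertical axis. In each panel the values of both genotypes lie close together, from -0.67 and -0.63 for *DLX1* between MNP and MXP to 6.81 and 6.52 for *DLX1* between MXP and FNP.

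The only replication the design offers is that of a prominence over both genotypes. In a limma fit with prominence and genotype as terms and 2 residual degrees of freedom, *DLX6* was higher in the MNP than in the MXP by 3.52 log2 units (SE 0.106, adjusted p = 0.00462) and *DLX5* by 2.08 (SE 0.0748, adjusted p = 0.00562). These were 2 of 3 DLX genes, compared with 2.65% of all genes called higher and 1.99% called lower in the MNP. *DLX1* did not pass, at -0.65 (SE 0.0979, adjusted p = 0.0589, 0.0422 to 0.283 over the alternatives), but passed with *GAPDH* as the reference gene. Without any one MXP or MNP library, the adjusted p of *DLX5* was 0.0545 to 0.0579. That of *DLX6* was 0.0584 without the control MXP and 0.0564 without the *talpid2* MXP, and it stayed below 0.05 without any other single library. All calls of this comparison, 480 genes in the full fit, numbered 15 to 52 without an MXP or MNP library.

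Against the FNP, all 3 DLX genes were called higher in the MNP by limma, compared with 4.91% of all genes called higher and 5.25% called lower. The differences were 6.02 log2 units for *DLX1* (SE 0.0979, adjusted p = 0.000908), 3.75 for *DLX6* (SE 0.106, adjusted p = 0.00237) and 1.59 for *DLX5* (SE 0.0748, adjusted p = 0.00496), and each stayed below an adjusted p of 0.05 without any one library. *DLX1* was higher in the MXP than in the FNP by 6.67 (SE 0.0979, adjusted p = 0.00164), as 1 of 3 DLX genes compared with 3.39% of all genes. The limma SE took no account of read number, and the FNP values of *DLX1* rested on 15 reads in *talpid2* and 20 in control. The counting intervals given above, 5.42 to 6.99 in *talpid2* and 5.26 to 6.60 in control between MNP and FNP, take in that error. *DLX5* was lower in the MXP by a difference of -0.49 (SE 0.0748, adjusted p = 0.0455), compared with 4.51% of all genes called lower. This last call was lost without any one of the 6 libraries (adjusted p 0.116 to 0.180) and with *GAPDH* as the reference gene (-0.19, adjusted p = 0.181, range over all alternatives 0.0265 to 0.181). *DLX6* did not pass between MXP and FNP (0.23, adjusted p = 0.280), except with *GAPDH* as the reference gene (0.53, adjusted p = 0.0248, range 0.0248 to 0.683). Of all genes, the 1051 calls against the FNP numbered 212 to 576, and the 816 calls between MXP and FNP 19 to 411, without any one library.

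Whether these prominence differences were the same in *talpid2* and control was tested on reads with an exact test of equal ratios. None of the 3 DLX genes passed an adjusted p of 0.05 for any of the 3 pairs, compared with 2.33% of genes with reads for MNP and MXP, 4.14% for MNP and FNP, and 3.84% for MXP and FNP. The smallest p of these 9 tests was that of *DLX6* between MNP and FNP. There the difference was 0.36 log2 units larger in *talpid2* than in control (0.08 to 0.63, exact test p = 0.00996, adjusted p = 0.147). For *DLX6* between MNP and MXP the difference between genotypes was 0.14 (-0.12 to 0.40, exact test, adjusted p = 0.804). For *DLX5* it was 0.11 (-0.07 to 0.29, exact test, adjusted p = 0.759) and for *DLX1* -0.04 (-0.19 to 0.12, exact test, adjusted p = 0.974). The widest intervals were those of *DLX1* against the FNP, which ran from -0.79 to 1.33 for the MNP and from -0.75 to 1.37 for the MXP. Changes within these bounds in the ratio to the FNP were thus not excluded for *DLX1* at this depth. For *DLX5* between MXP and FNP the difference was -0.20 (-0.41 to 0.01, exact test, adjusted p = 0.372), but -0.33 with *GAPDH* as the reference gene, which passed (exact test, adjusted p = 0.0430, range 0.0430 to 0.407 over the alternatives).

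Over all genes, the prominence differences of 1 log2 unit or more were often found in both genotypes. Of the genes at least 1 log2 unit higher in the MNP than in the MXP, 190 were so in both *talpid2* and control, which is 64.6% of those in *talpid2* and 59.2% of those in control. These 190 genes, which include *DLX5* and *DLX6*, differed between genotypes by a median of 0.32 log2 units, against 0.11 for *DLX5* and 0.14 for *DLX6*. Against the FNP, 259 genes were higher in the MNP of both genotypes, with a median difference between genotypes of 0.35, and here *DLX5* differed by 0.09, *DLX1* by 0.26 and *DLX6* by 0.36. For MXP and FNP, 177 genes were shared with a median of 0.37, and *DLX1* differed by 0.30. Many of these shared genes fell outside the limits of the deposited table in at least 1 library. Among those within the limits in all 6 libraries, the medians were 0.14 over 53 genes for MNP and MXP and 0.19 over 83 genes for MNP and FNP. These sets hold *DLX5* and *DLX6* but not *DLX1*. For MXP and FNP the median was 0.25 over 68 genes, none of them a DLX gene. Over all genes, the shares differing between genotypes by no more than *DLX1*, *DLX5* and *DLX6* were 19.2%, 47.4% and 56.6% for MNP and MXP. In the same order they were 75.1%, 39.5% and 83.6% for MNP and FNP, and 76.4%, 63.7% and 65.7% for MXP and FNP.

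The genotypes were then compared within each prominence. No DLX gene changed by 1 log2 unit or more between *talpid2* and control in any prominence, compared with 1.86% (FNP), 1.72% (MXP) and 1.54% (MNP) of all genes. In the MNP, *DLX6* was 1.16-fold (log2 ratio 0.22, 0.15 to 0.29) and *DLX5* 1.16-fold (0.21, 0.14 to 0.28) higher in the *talpid2* library. Both passed the Audic-Claverie exact test between these 2 libraries (adjusted p = 4.30e-08 and 1.49e-06), as 2 of 3 DLX genes compared with 6.74% of genes with reads. This share, like those for the FNP and MXP below, was not matched for read number. In the *talpid2* MNP, *DLX6* rested on 3385.18 reads and *DLX5* on at least 2936.26, and genes with fewer reads need larger ratios to pass. With *GAPDH* as the reference gene the ratios were smaller, at 0.14 for *DLX6* and 0.13 for *DLX5*, and still passed (exact test, adjusted p = 0.00281 and 0.0108, the largest over the alternatives). *DLX1* in the MNP had a ratio of 0.11 (-0.00 to 0.23, exact test, adjusted p = 0.296).

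In the FNP, *DLX5* was 1.23-fold higher in *talpid2* (log2 ratio 0.30, 0.17 to 0.44, exact test, adjusted p = 0.000194), as 1 of 3 DLX genes compared with 10.2% of genes with reads. *DLX6* in the FNP had a ratio of -0.14 (-0.40 to 0.13, exact test, adjusted p = 0.612). *DLX1*, on 15 reads in *talpid2* and 20 in control, had a ratio of -0.14 with an interval of -1.21 to 0.90, so that a ratio of -1, which is a halving in *talpid2*, lay inside the interval. In the MXP, 1 of 3 DLX genes passed compared with 6.18% of genes with reads, and this was *DLX1* (0.15, 0.05 to 0.25, exact test, adjusted p = 0.0438). With *GAPDH* as the reference gene its ratio was 0.04 and it no longer passed (exact test, adjusted p = 0.702, range 0.0447 to 0.702 over the alternatives). *DLX5* and *DLX6* in the MXP had ratios of 0.10 (-0.06 to 0.26) and 0.07 (-0.17 to 0.32), which turned to -0.01 and -0.04 with *GAPDH* as the reference gene.

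**Figure D3:**
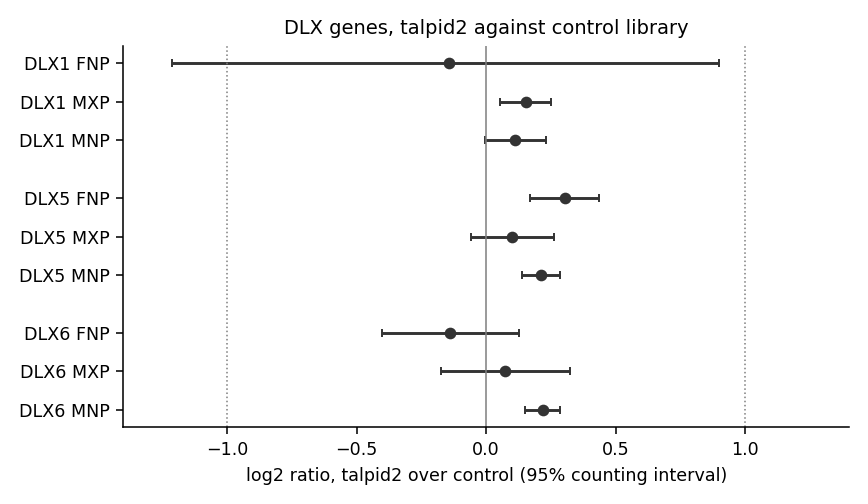
Log2 ratio of *talpid2* to control for each DLX gene and prominence (points) with the 95% counting interval (bars); dotted lines mark ratios of -1 and 1. All 9 points lie between -0.14 and 0.30, and the bars clear 0 for *DLX1* in the MXP, *DLX5* in the FNP and MNP, and *DLX6* in the MNP.

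Across the 3 prominences as paired comparisons, limma called 0 genes between the genotypes (0% of all genes), with 1542 genes at an unadjusted p below 0.05. *DLX5* was among these, with a mean difference of 0.20 log2 units (SE 0.0611, adjusted p = 0.299 in limma) and a higher value in *talpid2* in 3 of 3 prominences, or in 2 of 3 with *GAPDH* as the reference gene. *DLX6* and *DLX1* had mean differences of 0.05 (SE 0.0870, adjusted p = 0.795) and 0.04 (SE 0.0799, adjusted p = 0.822), with higher values in *talpid2* in MXP and MNP and lower ones in the FNP. With *GAPDH* as the reference gene these 2 means turned to -0.01 and -0.02.

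The other genes of the arch program were taken from lists of known factors. Of 10 distal mandibular factors 5 had values, and limma called 3 higher and 1 lower in the MNP than in the MXP. As given above, 2.65% of all genes were called higher and 1.99% lower in this comparison, and the lists that follow are read against the same shares. *HAND2*, the bHLH factor of the distal arch, had a log2 difference between MNP and MXP of 7.43 in *talpid2* and 6.56 in control, on 13.18 and 21 MXP reads. *PITX1*, a homeobox factor of the mandible and hindlimb, had differences of 3.51 and 3.52, and *GSC*, the homeobox factor goosecoid, 2.34 and 2.49. *TBX22*, a T-box factor needed for the palate, was on this list but was higher in the MXP, at -1.88 in *talpid2* and -1.93 in control. *GBX2*, a homeobox factor, was also on this list, with differences of -1.28 in *talpid2* and -1.405 in control, and was not called. The median of the 5 genes was 2.34 in *talpid2* and 2.49 in control, against -0.01 over all genes in either genotype. Without *HAND2*, which was not within the limits of the deposited table in all libraries, the median of the other 4 was 0.53 in *talpid2* and 0.54 in control.

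Among 6 of 9 proximal arch factors with values, limma called *JAG1* higher and *EYA1*, a transcriptional cofactor, lower in the MNP than in the MXP. *JAG1*, a Notch ligand of the upper arch in other vertebrates, was here higher in the MNP, by 1.09 log2 units in *talpid2* and 1.23 in control. Of 8 frontonasal factors 4 had values. *ALX1*, a paired-type homeobox factor of the midface, had differences between MNP and MXP of -1.64 in *talpid2* and -1.65 in control and was the one call of this list. *MEIS2*, a homeobox cofactor, was the one called of 3 measured partners and regulators of DLX proteins, at -2.24 in *talpid2* and -2.12 in control.

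Of 7 endothelin pathway genes 3 had values, and the ligand was not among them. The receptor *EDNRA* was the one call, lower in the MNP than in the MXP by differences of -0.75 in *talpid2* and -0.54 in control (limma, adjusted p = 0.0498). *MEF2C*, a transcription factor downstream of the endothelin receptor and of muscle, was the one listed gene with differences of at least 1 log2 unit in opposite directions, with an MNP minus MXP difference of -1.33 in *talpid2* and 1.05 in control. It rested on 2.08 reads in the *talpid2* MNP against 20.54 in the control MNP (log2 ratio -3.05, -6.28 to -1.11) and on no more than 8.16 reads in any other library, and limma did not call it. Of 7 measured BMP pathway genes limma called 1 higher and 1 lower. *MSX2*, a homeobox target of BMP signaling, was higher in the MNP by 1.17 in *talpid2* and 1.28 in control, and the ligand *BMP4* was lower by a difference of -1.20 in *talpid2* and -1.57 in control. None of 3 measured skeletal genes downstream of *DLX5* and *DLX6*, and neither of 2 measured genes of the mouth region, was called between MNP and MXP. For genotype, limma called 0 genes of any list.

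**Figure D4:**
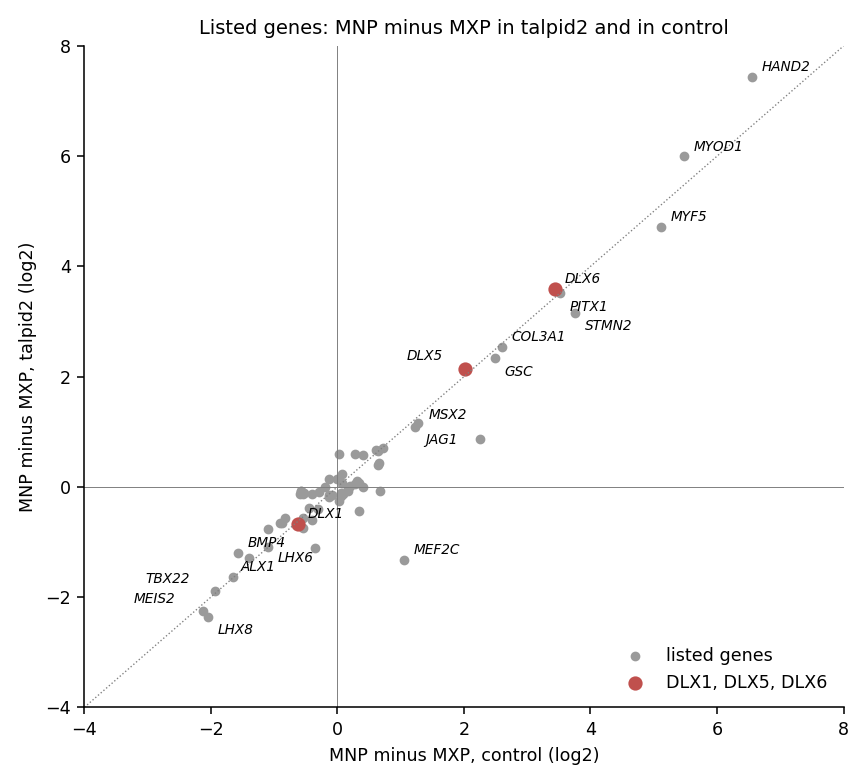
MNP minus MXP log2 difference of every listed gene in *talpid2* (vertical axis) against control (horizontal axis), with the DLX genes in red and a dotted line of equal values. Most genes lie near the line, *DLX5* at 2.13 and 2.02 and *DLX6* at 3.59 and 3.45, and *MEF2C* lies off it at -1.33 and 1.05.

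Markers of other cell types also differed between the libraries. Of 5 muscle markers 3 had values. *MYOD1* and *MYF5*, which specify skeletal muscle, were higher in the MNP than in the MXP by 5.996 and 4.71 log2 units in *talpid2* and by 5.48 and 5.12 in control. Both lay within the limits of the deposited table in 2 libraries only. The summed scaled value of *MYOD1* and *DES* was 935 in the MNP and 49.96 to 68.4 in the other prominences in *talpid2*, against 1011 and 42.1 to 64.1 in control. This sum was thus highest in the MNP of both genotypes, as were *DLX5* and *DLX6*. *DES* alone differed between MNP and MXP by 0.86 in *talpid2* and 2.26 in control. The part of muscle in the differences of *DLX5* and *DLX6* was not tested. *STMN2*, a neuronal marker, was higher in the MNP than in the MXP by 3.16 in *talpid2* and 3.75 in control, whereas *TUBB3*, also neuronal, had differences of -0.18 in *talpid2* and -0.14 in control. *LHX6* and *LHX8*, which mark ventral forebrain neurons and also the oral arch mesenchyme, were lower in the MNP, by differences of -1.08 and -2.36 in *talpid2* and -1.10 and -2.05 in control. The median of the 6 measured neural markers was -0.31 in *talpid2* and -0.16 in control. The summed scaled value of the 4 of them with recovered reads, *LHX6* included, was 983 to 2082 in *talpid2* and 894 to 1883 in control. *COL3A1*, a collagen of mesenchyme, was higher in the MNP by 2.54 in *talpid2* and 2.60 in control, but the median of the 7 measured mesenchyme markers was 0.06 in *talpid2* and 0.27 in control. None of 5 surface ectoderm markers differed by 1 log2 unit between prominences, and their summed scaled value over 3 genes with reads was 590 to 682 in *talpid2* and 583 to 651 in control.

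Between genotypes, markers of red blood cells differed most. All 7 of the measured erythroid markers were at least 1 log2 unit lower in the *talpid2* FNP and 5 of 7 in the *talpid2* MXP, compared with 1.86% (FNP) and 1.72% (MXP) of all genes past 1 log2 unit in either direction, with medians of -1.5004 (FNP), -1.09 (MXP) and -0.69 (MNP). The summed scaled value of *KLF1* and *EPB42*, erythroid genes with reads, was 65.3 to 94.9 in *talpid2* and 149 to 165 in control. Their part in the differences of *DLX5* and *DLX6* between genotypes was not tested. No muscle, neural, ectoderm, mesenchyme or endothelium marker reached 1 log2 unit between genotypes in any prominence. Differences below 1 were nevertheless as large as those of the DLX genes. *PECAM1*, an endothelial adhesion molecule, had ratios of *talpid2* to control of 0.58 (FNP), 0.31 (MXP) and 0.47 (MNP), and the median of the 4 measured endothelium markers was 0.43 (FNP), 0.20 (MXP) and 0.03 (MNP). *EGFL7*, another endothelial gene, had ratios of 0.54, 0.54 and 0.13 in the same order, and *COL3A1* of -0.58, -0.44 and -0.50. *COL3A1* did not stand for its list, since the median of the 7 measured mesenchyme markers was 0.01 (FNP), -0.02 (MXP) and -0.07 (MNP). The part of these markers in the DLX differences was not tested either.

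The genes with the most similar profile were sought by the root mean square difference of the 6 log2 values. Only genes with a symbol that lay within the limits of the deposited table in all 6 libraries were searched. *DLX5* was closest to *ADAMTS19*, a secreted metalloprotease gene, at 0.21, followed by *ZADH2* at 0.27, *ENOX1* at 0.29, *SMOC1*, a secreted calcium-binding matrix protein gene, at 0.30 and *LRIG3* at 0.39. *DLX6* was closest to *PENK*, which encodes proenkephalin, at 0.44, followed by *COL3A1* at 0.65, *PITX1* at 0.66, *GSC* at 0.75 and *SMOC1* at 0.91. *SMOC1* was thus near both genes. *DLX1* itself did not lie within the limits in all libraries, so that genes as low in the FNP were left out of its search. Among those searched, *CXCL14*, a chemokine gene, was at 1.70, *LHX6* at 1.75, *MAB21L2* at 1.87, *C9orf18* at 1.99 and *LOC421205* at 2.18. In the FNP these 5 genes had values between -2.79 and -2.15 in *talpid2* and between -3.60 and -2.37 in control, and thus lay above *DLX1* relative to their medians. Over the 6 libraries, which share their tissues and scaling, Pearson's r was 0.953 for *DLX5* and *DLX6*, 0.470 for *DLX1* and *DLX6* and 0.205 for *DLX1* and *DLX5*.

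Some genes beside *DLX1* were also low in the FNP. None of the genes listed within 300 kb was lower in the MNP than in the MXP by 1 log2 unit in both genotypes. *DLX1* itself did not reach this either, with differences of -0.67 in *talpid2* and -0.63 in control. Of 12 genes listed within 300 kb of *DLX1*, 3 were at least 1 log2 unit higher in MXP and in MNP than in the FNP in both genotypes. Over all genes, 2.51% were so in the MNP and 1.71% in the MXP. The 3 genes were the nearest entries on one side. The nearest, ENSGALG00000023392 at a distance of 1485 bases and on the same strand, had no symbol in the table. Its log2 values in FNP, MXP and MNP were -4.68, 0.35 and 0.52 in *talpid2*, against -4.84, -0.06 and 0.06 in control, on 27.56 reads in the FNP of *talpid2* and 29.72 in that of control. Unlike *DLX1*, all 3 had higher values in the MNP than in the MXP, although no counting intervals were computed for these differences. The difference was 0.17 in *talpid2* and 0.12 in control for this entry, 1.76 and 1.28 for *LOC424150* and 3.96 and 3.45 for NEWGENE4. *LOC424150*, at 3241 bases, was higher in the MNP than in the FNP by 3.85 in *talpid2* and 3.10 in control. The unannotated entry NEWGENE4, at 32667 bases, had differences from the FNP of 7.64 in *talpid2* and 7.22 in control. It lay within the limits of the deposited table in 2 libraries. In its MNP values, 4.28 in *talpid2* and 3.13 in control, this was the one neighbour of *DLX1* that differed by 1 log2 unit between genotypes.

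The *DLX1* entry covers 7443 bases. In the RefSeq gene table of GRCg7b the coding genes next to *DLX1* are *DLX2* and *METAP1D*, and no strand information was given for the counting. Whether reads of *DLX2*, or of a transcript on the other strand, were counted in the *DLX1* entry or in its neighbours was not tested. On chromosome 2, 6 genes other than the DLX pair were listed within 300 kb. *TAC1*, which encodes tachykinin peptides, was the 1 gene of these 6 at least 1 log2 unit higher in the MNP than in the FNP in both genotypes, compared with 2.51% of all genes. Its differences were 1.89 in *talpid2* and 2.86 in control, and it lay within the limits of the deposited table in 1 library. Its log2 ratio of *talpid2* to control was -2.30 (FNP), 0.57 (MXP) and -3.28 (MNP). The nearest, *ACN9* at 25012 bases and *SHFM1* on the other side, had differences between MNP and FNP of -0.47 and 0.60 in *talpid2*, against 0.06 and 0.62 in control.

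**Figure D5:**
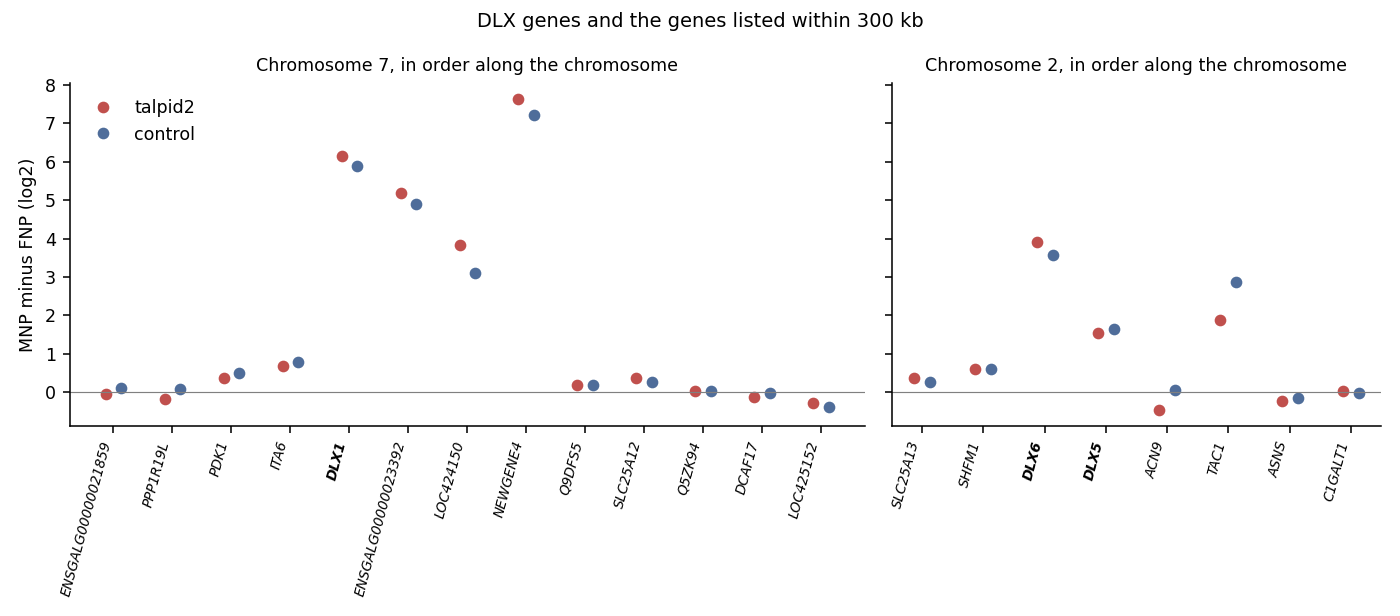
MNP minus FNP log2 difference (vertical axis) of the DLX genes (bold) and of the genes listed within 300 kb, in their order along chromosomes 7 and 2, with *talpid2* in red to the left of control in blue. Beside *DLX1* (6.14 and 5.89) the 3 next entries are also high, whereas around *DLX6* (3.92 and 3.57) and *DLX5* (1.54 and 1.64) *TAC1* alone is above 1 in both genotypes.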

How the data were processed

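RNA-seq of FNP, MXP and MNP from 8 *talpid2* and 8 control HH25 embryos gave 6 libraries (Illumina TruSeq and Nugen Ovation, HiSeq). The authors processed alignments to an Ensembl chick genome in GeneSpring and deposited log2 values, for which each library was scaled, 1 replaced anything smaller, and the median of each gene over the libraries was taken from its log2 values. The aligner is not given in the sources used here. The file header gives a lower limit of 3.0 in a unit it does not name, and 9128 of 10337 genes lay within the limits in all 6 libraries. Recovered reads did not track these limits in every gene. *MEF2C*, on 2.08 to 20.54 reads, lay within them in 4 libraries, and *HAND2*, on at least 13.18 reads in each library, in 2.

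All other values were computed in Python 3.11.15 (numpy 2.4.6, scipy 1.17.1, pandas 2.3.3, matplotlib 3.10.9) and R 4.3.3 (limma 3.58.1). Reads were recovered as the smallest set of whole bases of 50-base reads that gave the 6 values, up to 5000 reads. They were accepted if fewer than 0.01 chance solutions were expected, which held for 47.4% of genes. With deliberately wrong steps 1.02% of genes were accepted, and 2.37% were wrong when known reads were recovered. The recovered reads per library summed to 1075338 to 1153388 in *talpid2* and 1102012 to 1384823 in control. Intervals are exact (Clopper-Pearson, Poisson), and amplified reads are not independent molecules. Audic-Claverie and equal-ratio tests were 2-sided and adjusted by Benjamini-Hochberg over 4899 genes (*DLX5* included), and limma over all genes. The tests were checked on simulated data. Alternatives were another scaling (*GAPDH*, or the median), 10 added reads, genes within all limits, and leaving out each library.

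The members and lists were chosen with earlier results of these data known. Genes named are the members, the 5 most similar genes of each, listed genes with a difference between MNP and MXP of at least 1 in both genotypes (at most 4 per list), and genes within 300 kb. *C2CD3*, *EDNRA*, *EYA1*, *GBX2*, *TUBB3*, *PECAM1*, *EGFL7*, *KLF1*, *EPB42*, *DES*, *GAPDH* and *METAP1D* stand outside this rule and were named after values were seen. No sequences were used here.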

Additional observations from a re-analysis of the deposited data

How the results depend on the processing

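Libraries could not be paired by embryo or replicate, because there was 1 library of pooled tissue per genotype and prominence. The genotypes were matched only by prominence, which is a term of the limma fit. Of the other scalings, only *GAPDH* as the reference gene moved values of the DLX genes. It shifts the FNP libraries by 0.22 (*talpid2*) and 0.23 (control), the MXP by -0.02 and -0.13 and the MNP by -0.11 and -0.20 log2 units. With it the *DLX1* ratio in the MXP was 0.041. *DLX5* then had MNP minus FNP differences of 1.88 in *talpid2* and 2.06 in control and MXP minus FNP differences of -0.35 and -0.028, with a difference between genotypes of -0.33. *DLX6* had MNP minus FNP differences of 4.26 in *talpid2* and 3.99 in control and an MXP minus FNP difference of 0.48 in control. In limma, *DLX1* between MNP and MXP was then -0.57, *DLX5* between MXP and FNP -0.19 and *DLX6* 0.53, and 7106 genes were called between MNP and FNP (6703 higher, 403 lower, against 508 and 543) and 5058 between MXP and FNP (4623 and 435, against 350 and 466). Between MNP and MXP the calls were then 369 higher and 172 lower, against 274 and 206. Differences of at least 1 log2 unit between MNP and FNP then numbered 584 higher and 231 lower in *talpid2* (against 369 and 347) and 712 and 175 in control (against 368 and 310), those between MXP and FNP 391 and 249 in *talpid2* (against 268 and 345) and 494 and 226 in control (against 273 and 389), and those between *talpid2* and control in the MXP 75 and 111 (against 93 and 85). With 10 added reads the *DLX1* difference between MXP and FNP in *talpid2* was 6.09.

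Leaving out 1 library at a time, with the lone library of that prominence assumed to vary like the others, gave 15 to 322 calls between MNP and MXP, 212 to 576 between MNP and FNP and 19 to 411 between MXP and FNP. The limma difference between MNP and MXP was then 1.999 to 2.16 for *DLX5* and 3.39 to 3.64 for *DLX6*, and that between MXP and FNP was -0.57 to -0.41 for *DLX5*. Among genes within the limits of the deposited table in all 6 libraries, which leaves out *DLX1*, those with an absolute difference of at least 1 numbered 173 in *talpid2* and 167 in control for MNP and MXP, 255 and 246 for MNP and FNP, and 219 and 253 for MXP and FNP. For *talpid2* and control they numbered 37 (FNP), 29 (MXP) and 15 (MNP). With the median set to 0, the 9 ratios of *talpid2* to control kept their sign and call and the 18 prominence differences kept their sign. The limma and equal-ratio tests were not run with this scaling. The depth limits *DLX1* in the FNP most, at 15 reads in *talpid2* and 20 in control.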
